A study of Homo sapiens with 10 samples.

Results

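The MYB family of transcription factors was followed in U2OS cells, a human osteosarcoma line, after inhibition of CDK4 and CDK6, the kinases that D-type cyclins activate. Its members were taken as the genes MYB, MYBL1 and MYBL2, each read from probe sets annotated to exactly 1 gene symbol. Of the 3 members 2 were found, among 14232 genes with such a probe set, and each had 1 probe set. MYBL1 is not analysed here. The family was chosen by the measured differences between the treatments on these arrays, in which MYB was low after PD0332991 and MYBL2 was not, so the differences of MYB and MYBL2 between the treatments are given as a description, with no test.

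The treated cells received PD0332991 (palbociclib, a CDK4 and CDK6 inhibitor) for 4 h, and the control cells received its solvent DMSO for 4 h. All cells had been plated at a density of 25% and grown for 30 h with 10% fetal bovine serum. The labels print the dose as 1 mM, and that unit could not be checked here. Each treatment had 5 biological replicates, 1 Affymetrix exon array each, and the array names split them into a first set (replicates 1 to 3 of both treatments) and a second set (replicates 4 and 5 of both). The values are deposited log2 expression values, 1 per gene-level probe set, so a difference of 1 is a doubling of signal. The replicates come from 1 cell line, so all errors describe the spread between its cultures.

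MYB proteins bind DNA through repeats at their amino terminus and switch on genes of proliferation. MYB itself is best known as the factor that keeps immature blood cells dividing and as an oncogene of leukaemia. MYBL1 is best known in the male germ line, where in mouse it drives meiosis. MYBL2 is found in nearly all dividing cells, joins the MuvB proteins in S phase and helps to switch on the genes of G2 and mitosis. MYBL2 is a classical gene of the RB and E2F pathway, which CDK4 and CDK6 control, and E2F sites are also known in the MYB promoter.

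The promoters of both genes are shown because their letters nearest the start site hold the same E2F-type run of 10 bases, TTGGCGGGAG, in capitals below. The sequences are the 150 bases upstream of the RefSeq transcription start in build GRCh38.p14, both on the plus strand, at chr6:135181158-135181307 for MYB and chr20:43666964-43667113 for MYBL2.
MYB: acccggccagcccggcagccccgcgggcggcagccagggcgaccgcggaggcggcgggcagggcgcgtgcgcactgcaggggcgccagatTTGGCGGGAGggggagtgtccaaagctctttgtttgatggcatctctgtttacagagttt
MYBL2: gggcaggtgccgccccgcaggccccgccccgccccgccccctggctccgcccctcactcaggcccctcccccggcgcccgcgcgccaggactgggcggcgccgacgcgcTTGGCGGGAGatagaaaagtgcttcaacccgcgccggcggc
The run lay 60 to 51 bases upstream of the start in MYB and 41 to 32 bases upstream in MYBL2. It was picked after the promoters had been read, and it was found on either strand in 0.165% of 35116 RefSeq promoters of 300 bases (250 before the start and 50 after it). The longest run that both promoters share was another one, GCCCGCGCGCC, present in 0.476% of promoters. In MYB the 10-base run overlaps a match to the E2F site TTTGGCGG, held by 0.652% of promoters and not by that of MYBL2. Neither promoter window held the E2F sites TTTGGCGC (0.652% of promoters) or TTTCCCGC (1.63%), the cell cycle elements TTTGAA (15.2%) or TTCGAA (1.45%), or the MYB site TAACNG (20.8%), all searched on both strands. A match of letters is a description and not a site shown to be bound.

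MYB was lower in every PD0332991 culture than in any DMSO culture. On the log2 scale the 5 PD0332991 arrays, replicates 1 to 5, held 5.15, 5.24, 5.28, 5.17 and 5.13, against 5.86, 6.06, 6.05, 5.99 and 5.82 on the DMSO arrays. The groups did not overlap, and the lowest DMSO array stood 0.55 above the highest PD0332991 array. MYB averaged 5.19 ± 0.06 with PD0332991 and 5.96 ± 0.11 with DMSO (log2, SD, n = 5 each). The difference was -0.76 ± 0.09 (log2, SE), which leaves 59.0% of the DMSO signal, a 1.70-fold lower value with a 95% interval of 1.48 to 1.94. In bulk RNA, fewer cells that express a gene and less of its RNA per cell cannot be told apart.

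MYBL2, which sits at a high signal, was close to level between the treatments. The PD0332991 arrays held 11.30, 11.18, 11.36, 11.27 and 11.27, against 11.36, 11.32, 11.35, 11.30 and 11.35 on the DMSO arrays. The groups overlapped, with 3 of the 5 PD0332991 arrays below every DMSO array. The means were 11.27 ± 0.06 with PD0332991 and 11.34 ± 0.03 with DMSO (log2, SD, n = 5 each), a difference of -0.06 ± 0.08 (SE). The 95% interval of the MYBL2 difference ran from -0.24 to 0.11, so that its signal after treatment lay between 0.847 and 1.08 times that in DMSO. The 95% interval of the MYB difference was -0.95 to -0.57.

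**Figure D1:**
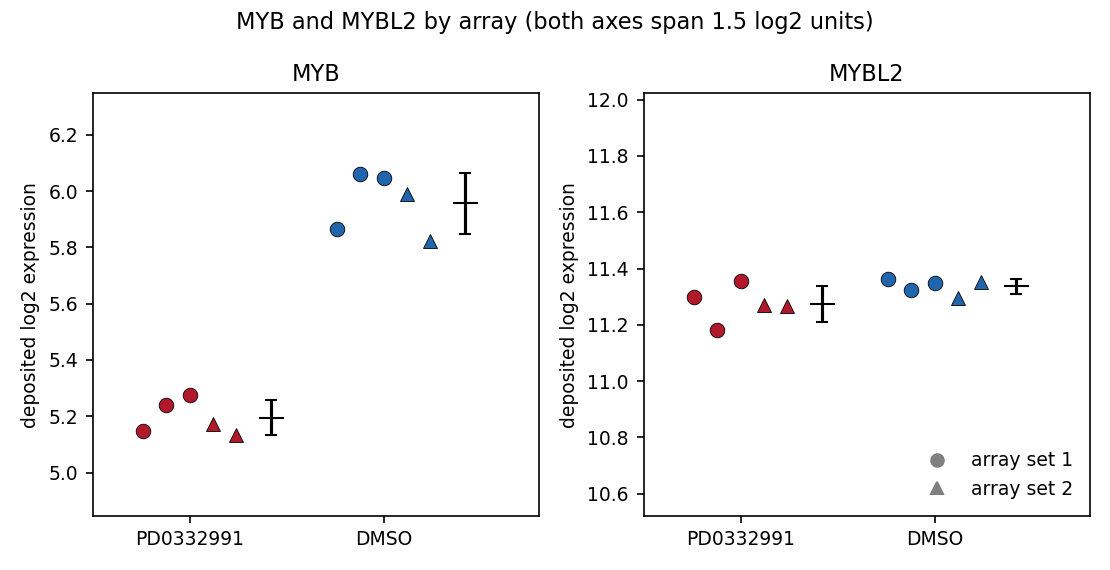
Deposited log2 expression (vertical axis) of MYB (left) and MYBL2 (right) on each array, PD0332991 left of DMSO; circles are array set 1, triangles array set 2, and bars are the mean ± SD of 5 arrays. The PD0332991 arrays of MYB lie between 5.13 and 5.28 and the DMSO arrays between 5.82 and 6.06, while both groups of MYBL2 lie between 11.18 and 11.36.

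In the fit over all 21980 probe sets (limma with the array set as a covariate, Benjamini-Hochberg adjusted p under 0.05), MYB was 1 of the 9 probe sets called lower, 0.0409% of those tested, and MYBL2 was not called. Among all probe sets 0.560% had all 5 PD0332991 arrays below all 5 DMSO arrays, as MYB had. The choice of the family rests on this contrast, so nothing is read from its call. Leaving out 1 array kept the MYB call only without DMSO replicate 1, and the call was lost without any one of the other 9, with the MYB difference between -0.79 and -0.74 in all 10 fits. It was also lost after quantile normalization (-0.72) or cyclic loess (-0.72).

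**Figure D2:**
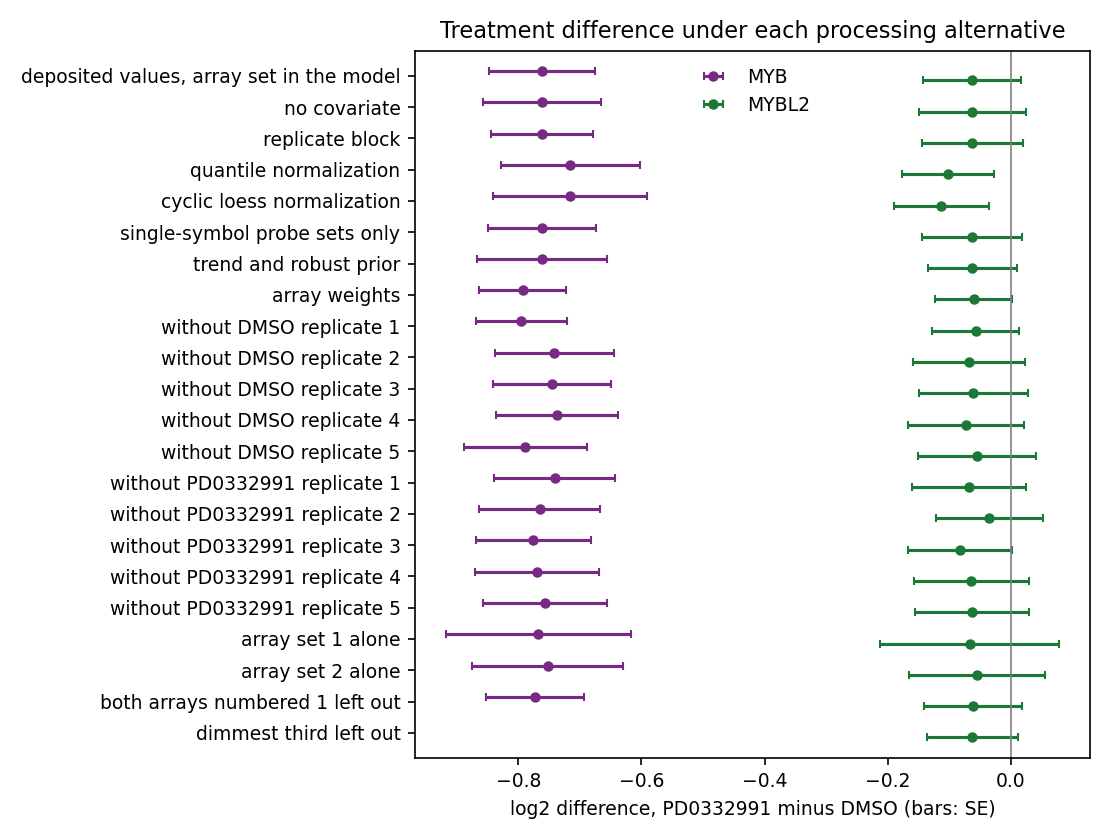
Log2 difference between PD0332991 and DMSO (horizontal axis, bars are the SE) of MYB and MYBL2 in the reported fit and under each alternative; MYB has no point where the dimmest 33.3% of probe sets were left out, since it falls among them. MYB lies between -0.79 and -0.72 throughout, and MYBL2 between -0.11 and -0.04.

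MYB was dim. On 4 of the 5 PD0332991 arrays its value lay below the lower quartile of its own array, and on 0 of the 5 DMSO arrays; those quartiles ran from 5.05 to 5.44. MYBL2 stood above the upper quartile on all 10 arrays. Detection calls were not used here, so how far the PD0332991 values of MYB stand above the background of the array is not known.

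Both genes varied little between arrays of one treatment. After treatment and array set were taken out, the residual SD was 0.08 for MYB and 0.05 for MYBL2, against a median of 0.24 over all probe sets (log2). Only 2.93% of probe sets had a smaller residual SD than MYB, and 0.268% a smaller one than MYBL2. Probe sets with a mean level within 0.5 of MYB had a median residual SD of 0.27, and those within 0.5 of MYBL2 had 0.20. A low residual SD helps a probe set to be called, so for MYB this too belongs to the values that chose it.

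The sets of arrays gave a comparison that the choice of the family did not use. MYB was -0.08 ± 0.09 (log2, SE) in set 2 relative to set 1, at 5.53 in set 2 and 5.61 in set 1, and MYBL2 was -0.02 ± 0.08, at 11.30 in set 2 and 11.31 in set 1. Neither passed (limma with treatment as a covariate, adjusted p = 0.735 for MYB and 0.952 for MYBL2), while 776 of all probe sets did, or 3.53%. The 95% intervals of these differences were -0.27 to 0.12 for MYB and -0.20 to 0.17 for MYBL2.

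The treatment difference of each gene was of similar size in both sets. MYB had -0.75 in set 2 and -0.77 in set 1. Within each set all PD0332991 arrays lay below all DMSO arrays, which follows from the full separation given above. Both sets are parts of the contrast that chose the family, so their similar values are a description and no independent support. MYBL2 had -0.06 in set 2 and -0.07 in set 1. The difference between sets in the treatment effect was 0.02 for MYB (95% interval -0.41 to 0.45) and 0.01 for MYBL2 (-0.39 to 0.41), with a limma adjusted p of 1.00 for both. No probe set passed that interaction in limma (0%). Of all 21980 probe sets 562 had an unadjusted p under 0.05, a smaller share than the 0.05 that chance alone would give. The intervals are wide, so a difference between the sets inside them was not detectable with these arrays.

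One control array stood apart from the rest. DMSO replicate 1 had a mean correlation of 0.962 with the other DMSO arrays, against 0.977 to 0.980 for the other 4. Without it the MYB difference was -0.79 and that of MYBL2 was -0.06, close to the values with it. Several small differences of other genes turned sign without it, and such values are given beside the gene or list named. The array medians lay between 6.95 and 7.06.

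The markers of the labelled cell type were present. Of 11 measured osteoblast and mesenchymal markers, 8 lay above the median of the array on all 10 arrays, while 0 of 11 blood markers, 0 of 5 testis germ cell markers and 2 of 7 epithelial markers did so. Over all genes 6718 of 14232 did so. The blood markers, from the tissue where MYB is best known, had a mean level of 5.31 to 5.74 on PD0332991 arrays and of 5.43 to 6.07 on DMSO arrays (log2). Of these 11 markers, 10 were on the lower side with PD0332991. None of them passed the test, where 0.0409% of all probe sets passed on the lower side. The median of the markers was -0.07, with 0.09 in set 2 and -0.19 in set 1. Over all genes 55.3% were on the lower side. Of the blood markers named below, KIT had 0.07 and CD4 had -0.17 without DMSO replicate 1. The part of the blood markers in the MYB difference was not tested.

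The RB and E2F genes that are known to govern the family were measured in full. Of 7 genes, 5 were on the lower side and 2 on the higher side, with a median log2 difference of -0.19 against -0.02 over all genes, of which 55.3% were on the lower side. The list median was -0.11 in set 2 alone and -0.27 in set 1 alone. E2F2, an activator of the E2F family, was the one gene of the list that passed and fell (9 lower calls over all probe sets, 0.0409%; 7.16 ± 0.15 with PD0332991 and 8.17 ± 0.07 with DMSO, log2, SD, n = 5, limma adjusted p = 0.00289). Its difference was -1.11 in set 2 alone and -0.94 in set 1 alone, where no probe set passed. E2F8, an atypical E2F that represses transcription, had -0.92 ± 0.14 (SE) and did not pass (limma adjusted p = 0.106), although it passed without DMSO replicate 2 (-1.04). The other activators had -0.21 for E2F1 and 0.01 for E2F3 (-0.03 without DMSO replicate 1), the atypical repressor E2F7 had -0.19, and RB1, the retinoblastoma protein, had -0.15. In set 2 alone RB1 had 0.04, E2F1 -0.06, E2F3 -0.11 and E2F7 -0.18. In set 1 alone RB1 had -0.27, E2F1 -0.31, E2F3 0.09 and E2F7 -0.20. Between the array sets E2F8 was -0.73 ± 0.15 (log2, SE) in set 2 relative to set 1 and RB1 was -0.72 ± 0.17, and both passed (limma adjusted p = 0.0287 for E2F8 and 0.0468 for RB1).

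The partners of MYBL2 in the MuvB complex showed no call, where 0.0409% of all probe sets were called lower. At that share an absence of calls in a short list says little, here and in the lists below. Of 12 genes listed 8 were measured, 3 on the lower side and 5 on the higher side, with a median of 0.03 that was -0.08 without DMSO replicate 1. The core subunits LIN9, LIN54 (which binds DNA) and RBBP4 (a histone chaperone) had 0.04 ± 0.17, 0.08 ± 0.16 and 0.02 ± 0.35 (log2, SE). Without that array they had -0.11, -0.04 and -0.08. RBBP4 had -0.23 in set 2 alone, 0.19 in set 1 alone and -0.21 without PD0332991 replicate 3. RBL1, the RB relative p107, had -0.48 ± 0.14 (SE, limma adjusted p = 0.686). TFDP2, a dimerization partner of E2Fs, had 0.13 and E2F5 had 0.15. FOXM1, the factor that follows MYBL2 on MuvB in G2, had -0.14 ± 0.10 (SE).

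Cofactors and modifiers of MYB proteins likewise held no call, where 0.0409% of all probe sets were called lower. Of 18 measured members of 28, 13 were on the lower side and 5 on the higher side, with a median of -0.03 and a range of -0.23 to 0.28. CREBBP, the acetyltransferase that binds the activation domain of MYB, had -0.12 ± 0.14, and FBXW7, the ubiquitin ligase receptor that marks MYB for degradation, had 0.04 ± 0.18 (log2, SE); without DMSO replicate 1 they had 0.01 and -0.13. The 4 with the smallest p were PIM1 (-0.23), a kinase reported to raise MYB activity, CCND1 (0.22), the D-type cyclin reported to bind MYB proteins, CDK2 (-0.21), which phosphorylates MYBL2 with cyclin A, and TAB2 (0.28, and 0.13 without DMSO replicate 1), an adaptor upstream of the MYB-modifying kinase NLK.

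Among genes known as targets of MYB, 1 of 25 measured was called lower, where 0.0409% of all probe sets were. On the lower side stood 15 and on the higher side 10, with a median of -0.03 that was 0.08 in set 2 and -0.08 in set 1, and 0.03 without DMSO replicate 1. CCNE1, the E-type cyclin, was the one member called, and fell by 0.95 on the log2 scale (9.20 ± 0.12 with PD0332991 and 10.16 ± 0.09 with DMSO, log2, SD, n = 5, limma adjusted p = 0.00911). CCNE1 is also a classical E2F target, and its call was lost when a single array was left out in 5 cases, namely PD0332991 replicate 1, 4 or 5 or DMSO replicate 4 or 5 (differences of -0.95 to -0.92). It had -1.09 in set 2 alone and -0.87 in set 1 alone, where no probe set passed. BCL2, which blocks apoptosis, had -0.28 ± 0.10, MYC, a transcription factor of cell growth, had -0.04 ± 0.09, and KIT, a receptor kinase of blood precursors, had -0.05 ± 0.14 (log2, SE), none past the test. Without DMSO replicate 1, MYC had 0.02 and KIT had 0.07. CD4 had -0.27 and CDK6, itself a target of the inhibitor, had 0.25.

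Genes of G2 and mitosis that MYBL2 and MuvB activate had no call either, where 0.0409% of all probe sets were called lower. Of 23 measured members of 25, 13 were on the lower side and 10 on the higher side, with a median of -0.05 that was -0.07 in set 2 and 0.06 in set 1. CCNB1, the B-type cyclin, had 0.10 ± 0.11, CDK1, its kinase, had -0.15 ± 0.30, and BIRC5 (survivin) had 0.06 ± 0.10 (log2, SE). Without DMSO replicate 1 the values were 0.03 for CCNB1, -0.45 for CDK1 and -0.01 for BIRC5. PLK1, a mitotic kinase, had -0.18 (-0.07 without that array), AURKB, the Aurora kinase of the chromosomal passenger complex, had -0.22, and UBE2C, a ubiquitin-conjugating enzyme of mitotic exit, had -0.22. AURKB was the 1 gene of this list with all PD0332991 arrays below all DMSO arrays, as 0.560% of all probe sets had.

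Genes that MYBL1 is known to drive in mouse testis were at low signal. Of 12 measured, 9 lay below the lower quartile on all 10 arrays and 0 above the median. On the lower side stood 8 and on the higher side 4 (median -0.07, and 0.02 without DMSO replicate 1). None was called, where 0.0409% of all probe sets were called lower. CCNA1, the germ cell A-type cyclin, had -0.11 ± 0.15, and PIWIL1, a piRNA-binding protein, had -0.15 ± 0.13 (log2, SE). HORMAD1, a meiotic chromosome axis protein, had 0.35 ± 0.28, and 0.09 without DMSO replicate 1.

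Other human genes with MYB-type DNA-binding repeats were compared as relatives by fold of the protein. Of 10 measured none was called, where 0.0409% of all probe sets were called lower. On the lower side stood 6 and on the higher side 4, with a median of -0.04 and a range of -0.13 to 0.16. Among them SNAPC4, a subunit of the small nuclear RNA activating complex, had -0.13, TERB1, a meiotic telomere protein, had -0.10, DNAJC1, a co-chaperone, had -0.09, and TTF1, the terminator factor of RNA polymerase I, had 0.16, and -0.04 without DMSO replicate 1.

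The nearest protein-coding genes on either side of the members in the RefSeq table were not called, where 0.0409% of all probe sets were called lower. Beside MYB on chromosome 6, HBS1L, a ribosome rescue factor, had 0.28 ± 0.20, and AHI1, a protein of the primary cilium, had 0.08 ± 0.20 (log2, SE). Beside MYBL2 on chromosome 20, IFT52, also of the cilium, had 0.08 ± 0.11, and GTSF1L had -0.36 ± 0.18 at a low signal of 4.08 with PD0332991 and 4.44 with DMSO. GTSF1L had -0.02 in set 2 alone and -0.58 in set 1 alone. Without DMSO replicate 1, HBS1L had 0.07 and AHI1 had -0.08, and AHI1 had -0.05 without PD0332991 replicate 3. The median of these neighbours was 0.08, and -0.03 without DMSO replicate 1.

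**Figure D3:**
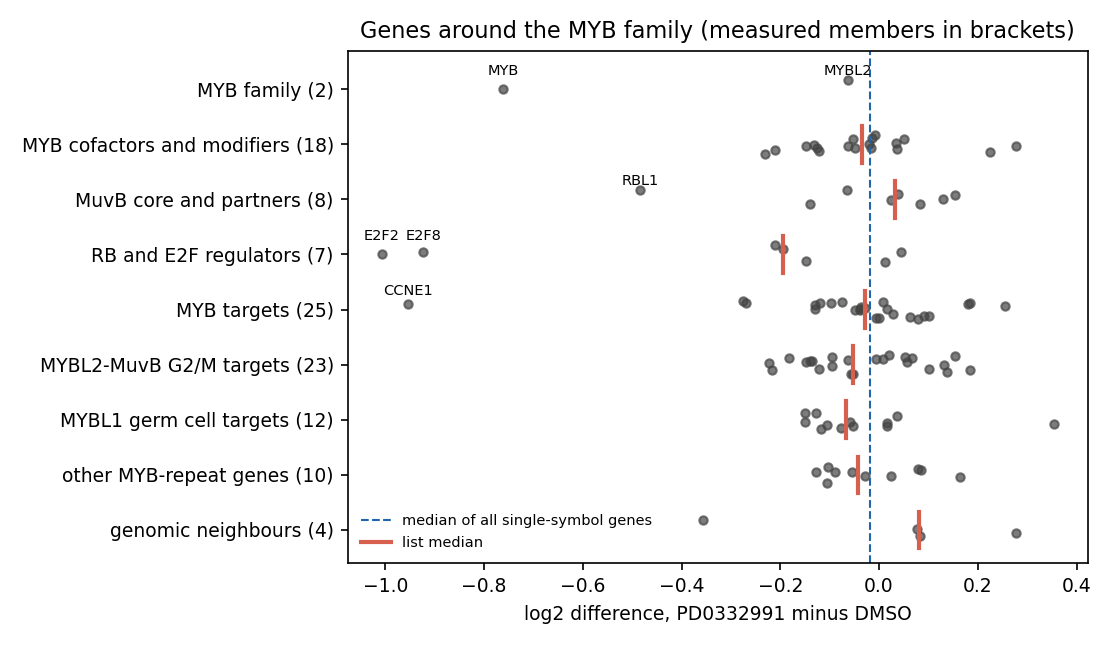
Log2 difference between PD0332991 and DMSO (horizontal axis) of each measured gene (points) in the MYB family and 8 lists around it, with list medians (red) and the median of all genes (dashed, -0.02). MYB at -0.76 lies near E2F2, E2F8 and CCNE1, and the other lists spread around the dashed line.

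Genes with the same 10-base run in their promoters stood on both sides. Besides the members, 39 measured genes held it, of which 23 were on the lower side, with a median of -0.02 and 0 called. The lowest of them, named here after their values were seen, were CDC6, which loads the replicative helicase (-0.68), MASTL, a mitotic kinase (-0.61), and DSN1, a kinetochore protein (-0.56). For the E2F site TTTGGCGG, which the MYB promoter holds, 70 of 129 other measured genes were on the lower side (54.3%, median -0.01), and for the E2F core GGCGGGA, held by both promoters and by 15.4% of all, 1605 of 2949 (54.4%, median -0.01), against 55.3% and a median of -0.02 over all genes. For the E2F sites that neither promoter holds, the counts were 196 of 322 (60.9%, median -0.04) for TTTCCCGC and 83 of 124 (66.9%, median -0.07) for TTTGGCGC. The genes called lower numbered 2 for TTTGGCGG, 3 for GGCGGGA, 1 for TTTCCCGC and 3 for TTTGGCGC. Some of these genes were counted for several sites. Of all 14232 genes, 9 were called lower, MYB among them. None of these shares was tested.

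Over the 10 arrays, with the mean of each array set taken out, the genes most like MYB were E2F2 (Pearson r = 0.98), ORC1 (0.98), MCM10 (0.97), LIMK2 (0.97) and CDC25A (0.97), out of 10234 genes left when the dimmest 33.3% of probe sets were set aside. E2F2 is an E2F activator, ORC1 a subunit of the origin recognition complex, MCM10 a replication initiation factor, LIMK2 a kinase of the actin cytoskeleton and CDC25A the phosphatase that activates CDK2. The treatment difference is part of this likeness: MCM10 averaged 8.71 ± 0.11 with PD0332991 and 9.48 ± 0.21 with DMSO, and LIMK2 averaged 7.72 ± 0.06 with PD0332991 and 8.14 ± 0.12 with DMSO (log2, SD, n = 5). By the same measure MYBL2 had r = 0.54 with MYB. The genes most like MYBL2 were CSNK1G2 (0.96), FANCG (0.95), VPS33B (0.95), ZNF195 (0.94) and CBR1 (0.94), and none of these 5 was called.

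With the treatment means within each set taken out as well, other genes came first. FYCO1 (0.96), CDS1 (0.96), MPHOSPH8 (0.96), C16orf87 (0.95) and ARL3 (0.95) were then the most like MYB, with differences between treatments of -0.04 to 0.14, and none called. For MYBL2 they were ZNF195 (0.98), SESN2 (0.98), NEFL (0.98), SURF6 (0.98) and SDHAF2 (0.97). Without DMSO replicate 1 the treatment difference of MPHOSPH8 went from 0.01 to -0.07. MYB and MYBL2 had r = -0.24 by this measure. These coefficients share the arrays and their scaling, were the highest of 10234, and are descriptions.

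**Figure D4:**
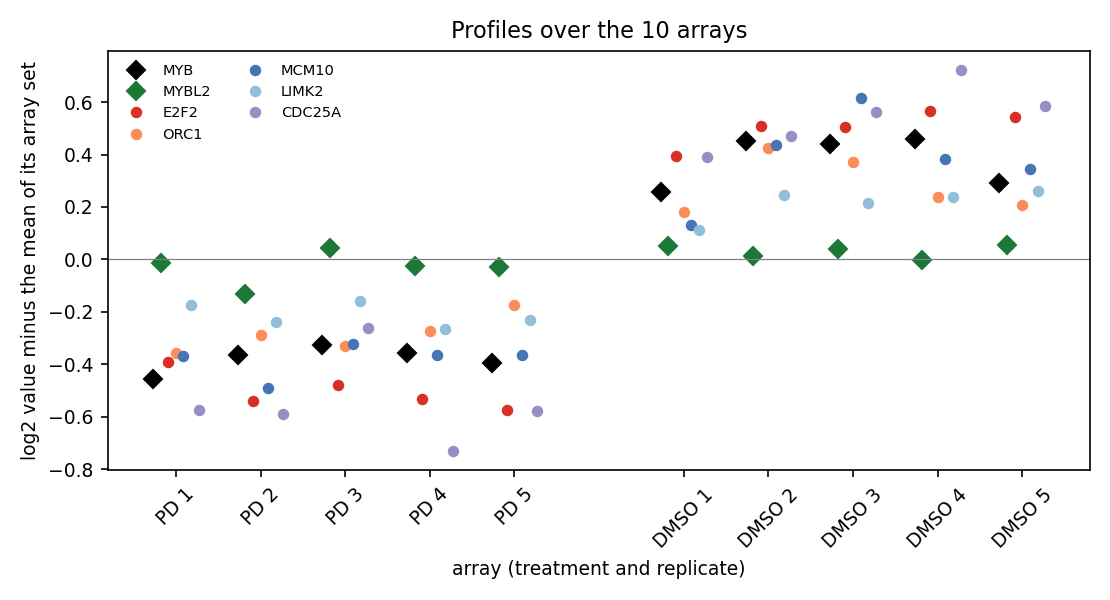
Log2 value minus the mean of its array set (vertical axis) on each of the 10 arrays, PD0332991 left of DMSO, for MYB and MYBL2 (diamonds) and the 5 genes most like MYB (circles). MYB and its 5 neighbours in pattern lie below 0 on all PD0332991 arrays and above 0 on all DMSO arrays, while MYBL2 stays near 0.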

How the data were processed

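The authors deposited log2 expression values, 1 per gene-level probe set of an Affymetrix exon array; per the submitters' processing notes, RMA and Partek were used with hg18, versions not given. RMA compresses fold changes of dim genes. Values were used as deposited (interquartile ranges 3.18 to 3.68); the number of arrays limits precision. Of 21980 probe sets, 14432 carried 1 symbol, 2408 several and 5140 none; 28 of the single symbols had no match by Entrez identifier in the RefSeq table (GRCh38.p14). A gene was read from its single-symbol probe set with the highest mean. Treatment (array set as covariate), array set (treatment as covariate) and their interaction were fitted with limma 3.58.1 in R 4.3.3, adjusted over all probe sets at 0.05. The procedure was tested on simulated data. No set test was run.

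Members, lists and markers were chosen with earlier results of these data known. The rule named the members, up to 4 genes per list with the smallest p, fixed regulators and targets, neighbours and the 5 most alike genes. EP300, LIN37, LIN52 and RBL2 are not analysed here. Alternatives changed covariates, normalization, filter, prior and weights, or left out arrays. Figures used Matplotlib 3.10.9.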

Additional observations from a re-analysis of the deposited data

Results flagged for a closer look

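A value far from the other 4 of its treatment was looked for in MYB, MYBL2 and the 62 other named genes, and neither MYB nor MYBL2 had one. Of the 128 groups checked, 10 had 1 array apart, all in the other genes, where chance gives about 1 in 20 groups. The groups share the same arrays, so they are not independent. DMSO replicate 1 was that array for BIRC5 (10.42, nearest other 10.71), CD4 (5.61, nearest 5.17), CDK2 (9.94, nearest 10.49), HBS1L (8.49, nearest 9.25) and HORMAD1 (5.40, nearest 6.41), in log2 values. The others were E2F7 on DMSO replicate 5 (8.85, nearest 9.17), GTSF1L on DMSO replicate 3 (4.82, nearest 4.40), ARL3 on PD0332991 replicate 1 (7.09, nearest 7.37), CCNE1 on PD0332991 replicate 3 (9.41, nearest 9.18) and PIM1 on PD0332991 replicate 3 (8.09, nearest 8.27).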

How the results depend on the processing

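The MYB difference kept its sign and stayed within 1 SD of the reported value in all 20 alternatives that measured it, and its call held in 5 of the 10 that did not leave out a single array (no covariate, single-symbol probe sets, trended prior, array weights, both arrays numbered 1 left out). These alternatives reuse the contrast that chose the family, so nothing is read from how often the MYB call held. MYBL2 moved to -0.11 with cyclic loess. Lower calls of the treatment numbered 1 with the replicate block, 14 over single-symbol probe sets, 50 with array weights and 0 in either set alone; higher calls numbered 1, 4, 13 and 0 there, and 1 with no covariate. With 1 array left out they ran from 1 to 20 lower (20 without DMSO replicate 1; 5 without PD0332991 replicate 2 or 3; 1 without DMSO replicate 4 or 5 or PD0332991 replicate 1, 4 or 5) and from 1 to 3 higher. Same-numbered arrays correlated at 0.04 to 0.54 in their deviations from the treatment means, and 2 of 5 best with their own number. Those deviations still hold the array set. With the treatment means within each set taken out, the correlations ran from -0.05 to 0.40, the latter for replicate 3. The numbers were therefore not taken to pair the samples. MYB, E2F2 and CCNE1 were not called with the replicate block. Between array sets, higher calls were 872 with the dimmest 33.3% left out and 1806 with array weights, and lower calls 400 and 1160, with 389 after quantile normalization, 390 after cyclic loess and 320 with the trended prior; both were 0 in DMSO arrays or PD0332991 arrays alone. With 1 array left out they ran from 76 to 1187 higher and from 12 to 618 lower. The set difference of MYBL2 ran from -0.038 to 0.0017 with 1 array left out. The interaction of MYB was -0.033 after quantile normalization and -0.055 after cyclic loess. The median of the MYB targets was 0.082 in array set 2 alone; that of the germ cell targets was 0.053 there and 0.35 with the dimmest 33.3% left out, which leaves 1 gene. The cause of these shifts was not tested beyond fewer arrays or probe sets. A further probe set of MYB or MYBL2 does not occur, so that alternative was not run.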
